A study of Mus musculus with 6 samples.

Results

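Transcripts for 2 ligands, CSF1 and IL-34 (Csf1, Il34), and for 4 receptor chains of the myeloid growth factors (Csf1r, Csf2ra, Csf2rb, Csf3r) were examined in mouse liver. These 6 genes were taken by symbol from the 24346 gene symbols of the deposited table, by a rule that uses no measured value, although earlier results of these data were known when the genes were chosen. All 6 passed the filter (an average of 0.5 FPKM or more in the 6 livers). FPKM is a fragment number divided by transcript length in kilobases and by the mapped fragments of the liver. The livers came from C57BL/6 mice, given in the study's methods as male C57BL/6J, 8 weeks old when a choline-deficient, high-fat diet (CDAHFD) was started as a model of steatohepatitis. After 6 weeks the mice received 1 injection of an AAV8 vector, were returned to normal chow and were analysed 2 weeks later. Control mice (n = 3) received LDTS-LIR mut, a lipid droplet-targeting sequence joined to a mutated LC3-interacting region, and lipophagy mice (n = 3) received LDTS-eLIR, in which an engineered LC3-interacting region tethers droplets to the autophagy machinery. Both groups therefore carried the diet history, the virus, mCherry and the droplet-targeting sequence, which derives from perilipin 1. The thyroxine-binding globulin promoter restricted expression mainly to hepatocytes, whereas the genes described here are known mostly from other cells of the liver.

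CSF1 and IL-34 both bind CSF1R, a receptor tyrosine kinase on which tissue macrophages, Kupffer cells included, depend for survival and proliferation. CSF1 is made by many stromal, endothelial and myeloid cells, and IL-34 is best known from neurons and the epidermis. CSF2RA and CSF2RB together form the receptor for GM-CSF, which acts on macrophages, dendritic cells and granulocytes, and CSF2RB is also the shared signalling chain of the IL-3 and IL-5 receptors. CSF3R is the receptor for G-CSF and is found above all on neutrophils and their precursors.

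The comparison asked how the levels of these ligands and receptors differed between livers with induced lipophagy and livers with the mutant construct. Csf1 and Csf1r were lower in every lipophagy liver than in any control liver, at 64.7% and 81.1% of the control mean. The means of Csf2ra, Csf2rb and Csf3r were also lower, at 77.8%, 78.8% and 69.1% of control, and Il34 stood at 105.1%. No member had an adjusted p below 0.05 (0 of 6, limma with Benjamini-Hochberg adjustment over all 11493 tested genes), and 0.0261% of all tested genes did. At an unadjusted p below 0.05, 4 of 6 members were lower (Csf1, Csf1r, Csf2ra, Csf3r) against 7.97% of all tested genes, and 0 of 6 were higher against 11.5%. The groups did not overlap, with lipophagy lower, in 3 of 6 members (Csf1, Csf1r, Csf3r) against 10.8% of tested genes, and with lipophagy higher in 0 of 6 against 15.4%. The estimated log2 change was below 0 in 5 of 6 members and in 45.5% of all tested genes, whose median change was 0.0196. Csf1 is among the genes labelled in the study's own heat map of these livers, so that its direction here is not independent evidence.

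**Figure D1:**
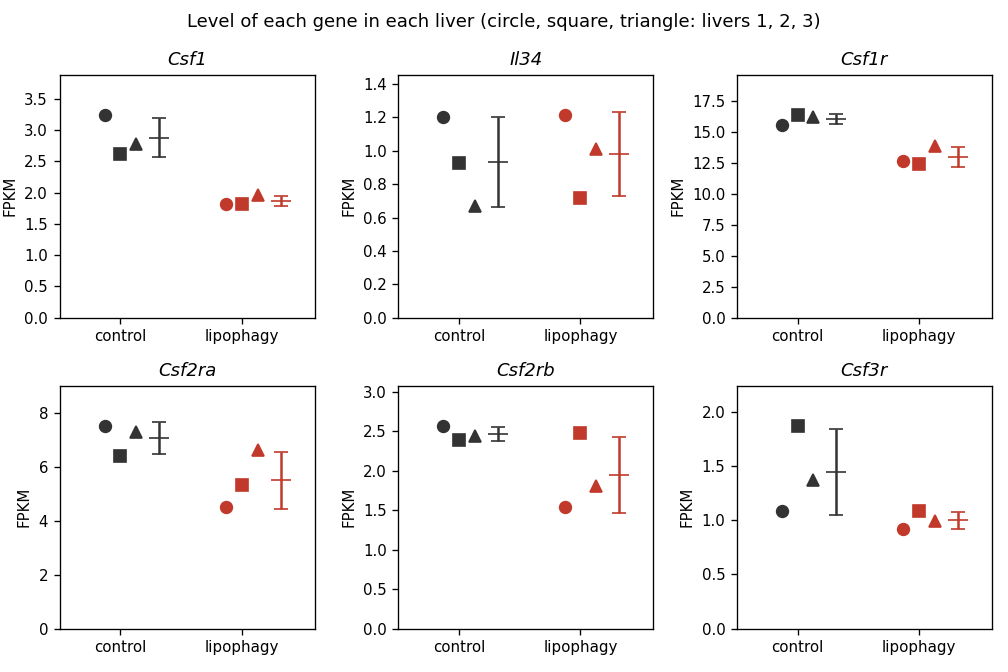
FPKM of the 6 genes in each liver (1 panel per gene, y axis in FPKM from 0, points for single livers, bars for the mean ± SD of 3). For Csf1, Csf1r and Csf3r every lipophagy point is below every control point, and the groups overlapped for Il34, Csf2ra and Csf2rb.

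Promoters of 3 members are shown here, as the 250 bases before the annotated start (RefSeq, GRCm38.p6). These 3 promoters differed in whether they hold a motif of the myeloid factor PU.1. They are those of Csf1, Csf2ra and Csf3r (3 of 6 members), and no sequence or motif is reported for Csf1r, Il34 and Csf2rb. Capitals mark GAGGAAG, a match to the ETS motif that PU.1 recognises.

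Csf1 (chr3:107760470-107760719, minus strand): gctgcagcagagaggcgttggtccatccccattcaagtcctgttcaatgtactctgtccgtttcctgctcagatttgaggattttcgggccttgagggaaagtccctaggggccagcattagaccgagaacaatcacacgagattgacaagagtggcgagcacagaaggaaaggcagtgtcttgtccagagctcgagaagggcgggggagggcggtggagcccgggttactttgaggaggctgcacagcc

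Csf2ra (chr19:61228419-61228668, minus strand): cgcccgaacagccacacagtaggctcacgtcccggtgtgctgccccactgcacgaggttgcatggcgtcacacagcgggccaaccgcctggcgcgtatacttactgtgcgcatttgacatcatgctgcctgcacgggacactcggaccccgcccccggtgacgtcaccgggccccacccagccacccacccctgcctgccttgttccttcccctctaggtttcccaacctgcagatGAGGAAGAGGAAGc

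Csf3r (chr4:126024409-126024658, plus strand): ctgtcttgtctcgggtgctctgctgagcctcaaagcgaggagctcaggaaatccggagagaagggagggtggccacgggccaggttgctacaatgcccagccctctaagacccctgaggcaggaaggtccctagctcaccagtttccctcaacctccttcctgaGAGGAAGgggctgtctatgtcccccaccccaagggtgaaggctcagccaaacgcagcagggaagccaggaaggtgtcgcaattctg

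Promoters of 250 bases before and 50 bases after the start were searched on both strands for GAGGAAG, for the AP-1 motif TGANTCA, and for the STAT and C/EBP motifs (TTC and GAA with any 3 bases between them, TTGC and AA with any 2 bases between them). In Csf2ra, GAGGAAG began 14 and 8 bases before the start, the second match sharing 1 base with the first. In Csf3r it began 86 bases before the start. None of the 4 motifs was found in the Csf1 window. Of 32851 promoters of the same 300 bases, 13.6% held GAGGAAG, 7.81% the AP-1 motif, 8.3% the STAT motif and 10.8% the C/EBP motif, so that a match alone is common. These matches describe letters only.

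Csf1 encodes macrophage colony-stimulating factor. Its level was 3.24, 2.63 and 2.78 FPKM in control livers 1, 2 and 3 and 1.82, 1.82 and 1.96 FPKM in lipophagy livers 1, 2 and 3. All 3 lipophagy livers thus lay within a narrow range below the lowest control liver. The mean was 2.88 ± 0.318 FPKM in control and 1.87 ± 0.0802 FPKM in lipophagy livers (SD, n = 3 each). On the log2(FPKM + 1) scale the difference was -0.44 (SE 0.0864, 95% interval -0.63 to -0.24, limma adjusted p = 0.124). Csf1 held place 89 of the 11493 tested genes when ordered by p, and 1.98% of them had a change as low or lower. Because 1 is added before the logarithm, values on this scale understate the change of such low genes.

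Il34 encodes the second ligand of CSF1R. It was measured at 1.203, 0.929 and 0.668 FPKM in control livers and at 1.21, 0.717 and 1.01 FPKM in lipophagy livers. The groups covered almost the same range, and the highest and lowest livers of each group differed more than the group means did. The means were 0.933 ± 0.268 and 0.981 ± 0.250 FPKM (SD, n = 3 each), a log2 difference of 0.0366 (SE 0.13, 95% interval -0.27 to 0.34, limma adjusted p = 0.897). The interval includes a difference of the size estimated for Csf2rb, and it excludes those estimated for Csf1r and Csf1. The exclusion of Csf1r depends on the 1 added: with 0.1 added, Il34 differed by 0.0712 (SE 0.25) and Csf1r by -0.30. The sign of the Il34 difference turned to -0.0654 without control liver 3 and to -0.0474 without lipophagy liver 1.

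The mix of the 2 ligands of CSF1R was compared within each liver. Shares of their summed FPKM do not depend on the scaling of the liver to its total. The log2 ratio still does in part, because 1 is added to each level. Il34 made up 27.1%, 26.1% and 19.4% of the summed FPKM of both ligands in control livers 1, 2 and 3, and the corresponding shares under lipophagy were 40.0%, 28.3% and 34.1%. The lowest lipophagy liver was above the highest control liver, by a margin smaller than the spread within either group. The log2 ratio of Il34 to Csf1 (each + 1) was -1.01 ± 0.15 in control and -0.54 ± 0.18 in lipophagy livers, a difference of 0.47 (exact permutation test, two-sided, p = 0.1, the smallest that 3 against 3 allows, and 0.267 after adjustment over 4 ratios). The sum of both ligands was 3.45 to 4.44 FPKM in control and 2.54 to 3.03 FPKM in lipophagy livers.

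The other ligands of these receptors were at or near 0. Csf2 (GM-CSF) had 0, 0.0485 and 0.0339 FPKM in control livers and 0.0488, 0.202 and 0 FPKM in lipophagy livers. Csf3 (G-CSF) and Il3 were listed at 0 in all 6 livers, and Il5 reached 0.0318 FPKM at most. Differences in these ligands were not detectable at this depth. The receptor chains Csf2ra, Csf2rb and Csf3r were measured in every liver.

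Csf1r encodes the receptor of CSF1 and IL-34 and marks the macrophage lineage. It had the highest FPKM of the 6 genes, with 15.6, 16.4 and 16.2 FPKM in control livers and 12.7, 12.4 and 13.9 FPKM in lipophagy livers. The groups did not overlap, and the control livers differed little among themselves. The means were 16.1 ± 0.417 and 13.02 ± 0.796 FPKM (SD, n = 3 each), and the log2 difference was -0.28 (SE 0.0768, 95% interval -0.46 to -0.11, limma adjusted p = 0.151). Set against its ligand in the same liver, the log2 ratio of Csf1 to Csf1r was -2.14 ± 0.15 in control and -2.29 ± 0.0417 in lipophagy livers, a difference of -0.15 (exact permutation p = 0.2, two-sided, 0.267 after adjustment over 4 ratios). This value depends on the 1 added to each level: the groups overlapped slightly, with lipophagy liver 2 at -2.25 and control liver 2 at -2.26, whereas with 0.1 added the difference was -0.29 and the groups did not overlap (exact permutation p = 0.1, two-sided, the smallest possible). Leaving out control liver 1, with the highest ratio, made the difference -0.0655.

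Csf2ra encodes the chain that binds GM-CSF. Its level was 7.52, 6.40 and 7.30 FPKM in control livers and 4.53, 5.34 and 6.65 FPKM in lipophagy livers. Lipophagy liver 3 lay above control liver 2, so the groups overlapped. The means were 7.08 ± 0.594 and 5.504 ± 1.07 FPKM (SD, n = 3 each), with a log2 difference of -0.32 (SE 0.13, 95% interval -0.61 to -0.03, limma adjusted p = 0.229). Lipophagy liver 1 had the lowest value, and without it the difference was -0.21. The unadjusted p of Csf2ra was below 0.05 in only 2 of 6 fits with 1 liver left out (without control liver 2, and without lipophagy liver 3).

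Csf2rb, the signalling chain shared by the receptors for GM-CSF, IL-3 and IL-5, was measured at 2.57, 2.39 and 2.44 FPKM in control livers and at 1.55, 2.47 and 1.81 FPKM in lipophagy livers. Lipophagy liver 2 fell inside the control range and the remaining livers below it. The means were 2.47 ± 0.0915 and 1.94 ± 0.479 FPKM (SD, n = 3 each), and the log2 difference was -0.25 (SE 0.12, 95% interval -0.52 to 0.02, limma adjusted p = 0.288). Leaving out lipophagy liver 2 made it -0.37, and leaving out lipophagy liver 1 made it -0.15. The liver with the high Csf2rb also had the highest summed level of erythroid markers, 443 FPKM against 106.8 to 129.6 FPKM in control livers and 163 and 118.2 FPKM in the other lipophagy livers, and the part of this in the result was not tested.

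In the mouse a neighbouring copy, Csf2rb2, encodes a chain that serves the IL-3 receptor alone. Its level was 1.54, 1.22 and 1.44 FPKM in control livers and 0.822, 1.12 and 0.967 FPKM in lipophagy livers, without overlap (log2 difference -0.29, SE 0.0916, limma adjusted p = 0.182). Of all runs of 100 bases in the longest Csf2rb transcript, 6.96% were also in Csf2rb2, and 18.4% of the runs of 50 bases were, so that the division of fragments between both genes is uncertain. When their FPKM were added in each liver, a comparison chosen after seeing the data, the log2 difference was -0.33 (limma adjusted p = 0.212). Il3ra, the ligand-binding chain of the IL-3 receptor, was at 1.76, 2.18 and 1.84 FPKM in control and 2.36, 2.59 and 1.15 FPKM in lipophagy livers, with overlapping groups (log2 difference 0.019, limma adjusted p = 0.964). Il5ra did not exceed 0.0236 FPKM in any liver.

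Csf3r encodes the G-CSF receptor. It was measured at 1.09, 1.87 and 1.38 FPKM in control livers and at 0.921, 1.086 and 0.991 FPKM in lipophagy livers. The groups did not overlap, but lipophagy liver 2 and control liver 1 all but touched, and control liver 2 was well above the rest. The means were 1.45 ± 0.396 and 0.9995 ± 0.0829 FPKM (SD, n = 3 each), and the log2 difference was -0.28 (SE 0.12, 95% interval -0.56 to -0.0042, limma adjusted p = 0.252). Without control liver 2 it was -0.16, and after quantile normalization, without a filter or with a filter of 1 FPKM its unadjusted p was no longer below 0.05. With 1 liver left out, it was below 0.05 in 1 of 6 fits, that without control liver 1. The summed level of neutrophil markers was 18.4, 32.0 and 25.4 FPKM in control livers and 16.5, 16.2 and 19.4 FPKM in lipophagy livers, with overlapping groups. Control liver 2 was the highest in both, but lipophagy liver 2, with the highest Csf3r of its group, had the lowest marker sum. Most of that sum came from S100a8 and S100a9, the 2 of 11 measured neutrophil markers that passed the filter, while the granule genes Mpo and Elane did not exceed 0.0612 and 0.15 FPKM. Of the 9 measured neutrophil markers under the filter, 6 had lower means in lipophagy livers (Cxcr2, Retnlg, Mmp8, Elane, Mpo and Ltf) and 3 had higher means (Camp, Ngp and Mmp9), all at means below 0.5 FPKM. The part of neutrophils in the Csf3r result was not tested.

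In the order of FPKM, control livers ran from Csf1r through Csf2ra, Csf1, Csf2rb and Csf3r to Il34, and only Csf3r and Il34 overlapped. In lipophagy livers the mean of Csf2rb stood before that of Csf1, but the ranges of both overlapped, as did those of Csf3r and Il34. That order of the means rested on lipophagy liver 2, since Csf1 was above Csf2rb in lipophagy livers 1 and 3, as in all control livers. With depth estimated from the steps of low FPKM values at 23.4 to 33.8 M fragments in control and 22.7 to 24.4 M fragments in lipophagy livers, Csf1r rested on about 1050 to 2496 fragments per liver and Il34 on 25 to 52. Counting alone would give Il34 a relative error of about 15.5% to 16.7%, against a coefficient of variation between livers of 28.7% in control and 25.5% in lipophagy. For Csf1r the counting error was 2.22% to 2.96% and the coefficient of variation 2.6% and 6.11%. For Csf1 the number of fragments ranged from 28 to 378, depending on which transcript length is taken. Its coefficient of variation was 11% in control livers, against a counting error of 5.57% to 13.7%, and 4.3% in lipophagy livers, against 7.52% to 18.4%, so that the lipophagy values lay closer together than counting alone would give on average.

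The genes most alike in profile to each member were sought among all tested genes by the root mean square difference of centred log2(FPKM + 1) values over the 6 livers. For Csf1 these were Hmox1 (0.0319), Mid1 (0.0381) and Gem (0.0530), for Csf1r Fscn1 (0.0286), Sema4b (0.0289) and Khnyn (0.0341), and for Il34 Ipo11 (0.0416), Copg2 (0.0431) and Angptl2 (0.0472). Csf2ra was nearest to Fam160b2 (0.0447), Polr3gl (0.0484) and Klhdc8b (0.0496), Csf2rb to A330040F15Rik (0.0439), Cybb (0.0477) and Pamr1 (0.0481), and Csf3r to Slfn1 (0.0401), Endod1 (0.0487) and Gja1 (0.0514). Hmox1, which encodes the haem-degrading enzyme haem oxygenase 1, averaged 22.8 FPKM in control and 16.8 FPKM in lipophagy livers, and Cybb, the catalytic chain of the phagocyte NADPH oxidase, 6.61 and 5.34 FPKM. With 11493 genes and only 6 livers, such closeness is a description of these profiles.

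The genes around the receptors were described from lists. Of 22 genes that carry signals from these receptors, 20 were tested, 17 had a lower and 3 a higher estimate, and none had an adjusted p below 0.05. Their median log2 change was -0.14 against 0.0196 over all tested genes. At an unadjusted p below 0.05, 5 of the 20 were lower and 1 higher, against 7.97% and 11.5% of all tested genes. The lowest estimate was that of Vav1, a guanine nucleotide exchange factor of blood cells, with 2.10, 1.87 and 1.91 FPKM in control and 1.35, 1.36 and 1.33 FPKM in lipophagy livers (log2 difference -0.34, limma adjusted p = 0.134). The groups also did not overlap for Pik3cd, a leukocyte PI3-kinase subunit (-0.30), the adaptor Dok2 (-0.27) and the kinase Syk (-0.25), each with a limma adjusted p between 0.140 and 0.212. The highest estimate was that of the widely used adaptor Shc1, with 13.9, 13.1 and 14.3 FPKM in control and 18.6, 15.4 and 15.5 FPKM in lipophagy livers (0.24, limma adjusted p = 0.230).

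Of 18 transcription factors listed for myeloid cells, 14 were tested, with 7 lower and 7 higher estimates. Their median log2 change was -0.0360, and it was -0.0040 without lipophagy liver 1 and -0.0063 without lipophagy liver 3. Levels are those of whole liver and were not assigned to a cell type. Control means were 115 FPKM for Cebpa and 102.4 FPKM for Id2, against 11.1 FPKM for Spi1. Spi1, which encodes PU.1, had 10.6, 11.3 and 11.5 FPKM in control and 9.12, 9.34 and 8.66 FPKM in lipophagy livers, without overlap (-0.27, limma adjusted p = 0.154). Irf8, a factor of monocytes and dendritic cells, differed by -0.24 (limma adjusted p = 0.204) and Nr4a1, a nuclear receptor of patrolling monocytes, by -0.27 (limma adjusted p = 0.211), also without overlap. The lowest estimate was that of Id2 (-0.28), whose groups overlapped. The highest estimate was that of Bhlhe40 (0.59, limma adjusted p = 0.307), in which lipophagy liver 3 alone reached 64.7 FPKM while lipophagy liver 2, at 24.4 FPKM, lay within the control range of 22.4 to 26.6 FPKM.

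**Figure D2:**
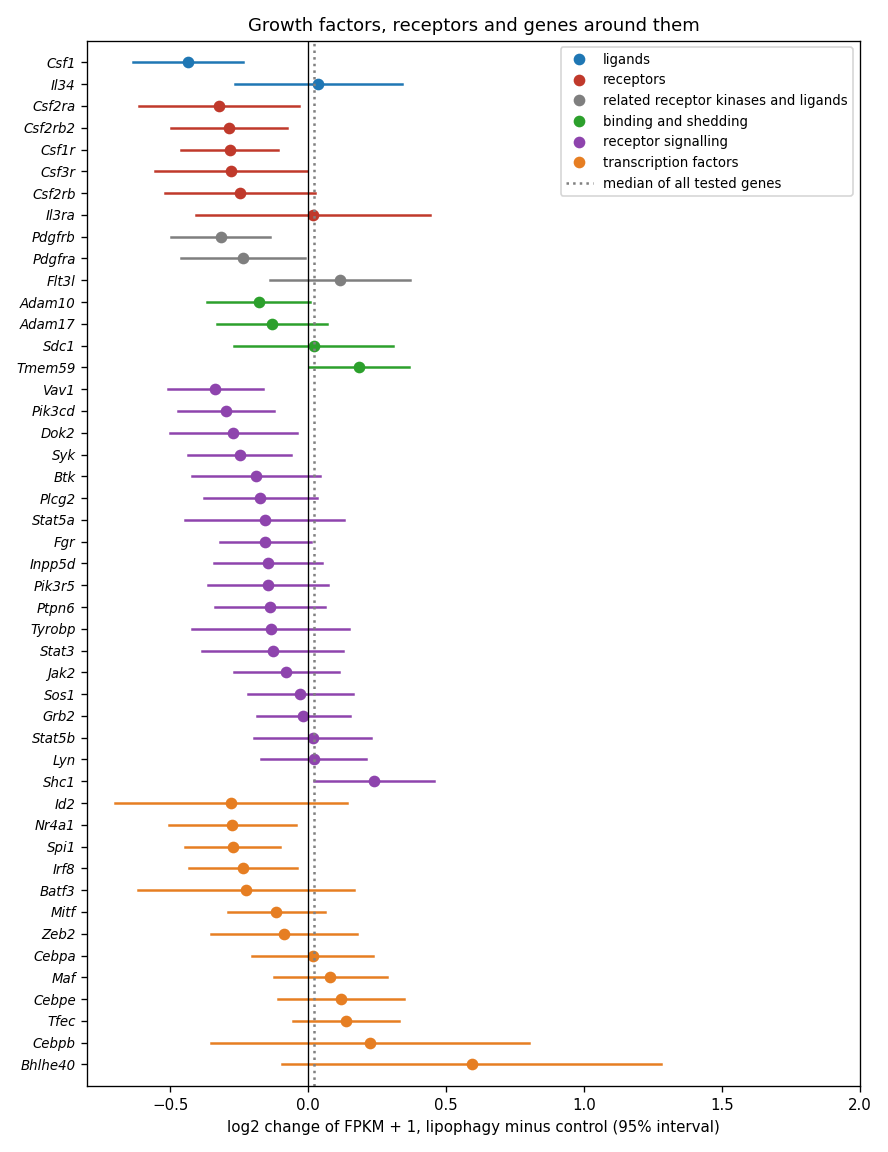
Log2 change of FPKM + 1 (lipophagy minus control, x axis) for tested genes of the growth factor, receptor, signalling and transcription factor lists, with 95% intervals from limma and a dotted line at the median of all tested genes. Csf1 had the lowest estimate of those plotted (-0.44), most signalling genes lay below 0, and the wide interval of Bhlhe40 came with 1 high lipophagy liver.

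Among the receptor kinases related to CSF1R and their ligands, 3 of 6 genes were tested, while Kit, Kitl and Flt3 were under the filter. Pdgfrb, a PDGF receptor of stellate cells and pericytes, had 2.75, 2.66 and 2.42 FPKM in control and 1.88, 1.99 and 1.82 FPKM in lipophagy livers (log2 difference -0.32, limma adjusted p = 0.135). Pdgfra differed by -0.23 (limma adjusted p = 0.246), and neither gene overlapped between groups, though the highest lipophagy value of Pdgfra, 0.832 FPKM, all but met the lowest control value, 0.836 FPKM. Flt3l, the ligand of the dendritic cell receptor FLT3, differed by 0.11 with overlap (limma adjusted p = 0.579). Of 6 genes listed for binding or shedding of CSF1, IL-34 or the receptor, 4 were tested, with 2 lower and 2 higher estimates. The sheddase gene Adam10 differed by -0.18 (limma adjusted p = 0.270) and Tmem59, a membrane protein of the secretory pathway whose place in this list is uncertain, by 0.19 (limma adjusted p = 0.250), both without overlap. Ptprz1, a receptor that also binds IL-34, was listed at 0 in all livers.

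In whole liver, fewer cells of a type and less RNA per cell cannot be told apart, so the markers of the cells that carry these receptors are given beside them. Hepatocyte markers were present as the tissue label says, with 61520 to 68680 FPKM in sum in control and 74690 to 97540 FPKM in lipophagy livers, and 10 of 11 tested had a higher estimate (median log2 change 0.29). Of 15 tested macrophage markers, 14 had a lower estimate, with a median of -0.21, near that of Csf1r. Their summed levels overlapped, at 936.1 to 1224 FPKM in control and 898.7 to 1081 FPKM in lipophagy livers, a sum led by a few abundant genes. The mean of their log2(FPKM + 1) levels, in which each marker weighs equally, was 4.50 to 4.68 in control and 4.34 to 4.46 in lipophagy livers and did not overlap. Adgre1, the gene of the pan-macrophage antigen F4/80, was the macrophage marker with the higher estimate, at 4.82, 4.44 and 3.71 FPKM in control and 5.06, 4.74 and 3.80 FPKM in lipophagy livers. Of 7 tested Kupffer cell markers, 3 were lower and 4 higher, with summed levels of 136.8 to 167.9 and 145.1 to 167.9 FPKM. Their median of 0.0349 had no stable sign, turning to -0.0466, -0.0352 and -0.0154 when control liver 2, control liver 3 or lipophagy liver 1 was left out, in that order, and to -0.0049 after quantile normalization.

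Monocyte markers had lower estimates in 7 of 7 tested genes (median -0.31), with summed levels of 129.1 to 151.0 FPKM in control and 116.5 to 131.5 FPKM in lipophagy livers. Their mean log2(FPKM + 1) level was 2.52 to 2.57 in control and 2.23 to 2.32 in lipophagy livers, again without overlap. Ccr2, the chemokine receptor of inflammatory monocytes, had 2.16, 2.01 and 1.85 FPKM in control and 1.12, 1.78 and 1.41 FPKM in lipophagy livers, without overlap (limma adjusted p = 0.204). Dendritic cell markers had lower estimates in 3 of 4 (median -0.21), stellate cell and fibroblast markers in 9 of 12 (-0.24), bile duct markers in 5 of 5 (-0.46), lymphocyte markers in 2 of 3 (-0.12) and neutrophil markers in 2 of 2 (-0.48, and -0.31 without control liver 2). Endothelial markers had higher estimates in 9 of 11 (median 0.10) and erythroid markers in 5 of 5 (1.03). The endothelial median was 0.22, 0.0166 and 0.0627 when control liver 1, 2 or 3 was left out, and 0.0120 and 0.18 when lipophagy liver 1 or 2 was. The erythroid median was 0.23 without lipophagy liver 2, and 0.65 when control liver 2 was left out. With all 6 livers it was the estimate of Hbb-bs. That gene had 0.0029, 0.0029 and 3.85 FPKM in control and 0.0030, 5.66 and 5.19 FPKM in lipophagy livers. How fragments were divided among similar globin genes is not known. Stellate cell and fibroblast markers summed to 237.3 to 270.1 FPKM in control and 191.2 to 257.1 FPKM in lipophagy livers. Their mean log2(FPKM + 1) level was 3.27 to 3.35 in control and 2.99 to 3.10 in lipophagy livers, without overlap. This list was mixed: 6 of its 12 markers were lower without overlap, from Col1a1 (-0.75) to Acta2 (-0.34). Higher estimates were found for 3, with Lrat (0.25) the highest.

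The receptor was then set against the macrophage markers within each liver. The log2 level of Csf1r less the mean log2 level of the macrophage markers was -0.50 ± 0.0650 in control and -0.59 ± 0.12 in lipophagy livers, a difference of -0.0810 (exact permutation p = 0.5, two-sided). The groups overlapped in this value, which ran from -0.0183 without lipophagy liver 2 to -0.13 without lipophagy liver 3 and was -0.0285 with the median of the markers in place of their mean. Csf1 less the mean of the stellate cell and fibroblast markers was -1.35 ± 0.14 and -1.52 ± 0.0724, a difference of -0.17 (exact permutation p = 0.2, two-sided, 0.267 after adjustment over 4 ratios), and it was -0.0983 without control liver 1 and 0.20 with the median of the markers. The part of any cell type in the levels of Csf1, Csf1r or the other members was not tested.

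**Figure D3:**
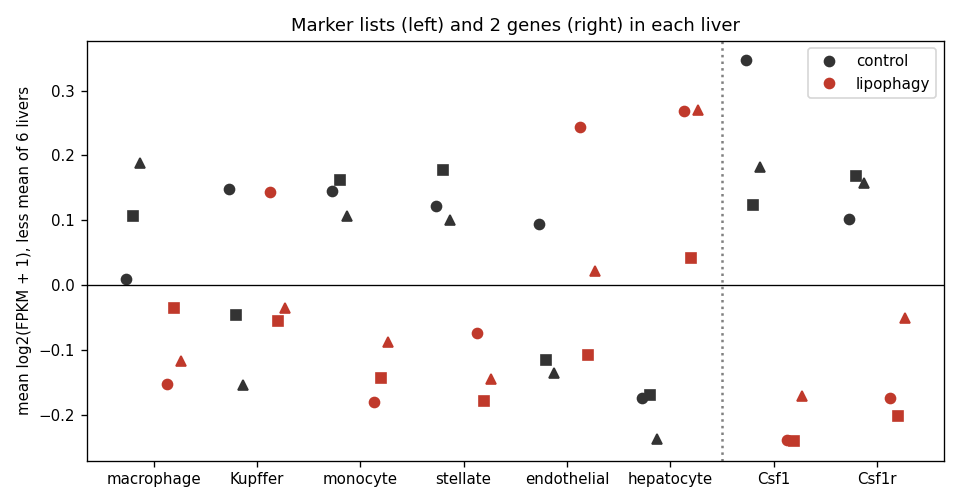
Mean log2(FPKM + 1) of 6 marker lists, and log2(FPKM + 1) of Csf1 and Csf1r, in each liver less the mean of all 6 livers (y axis), with circles, squares and triangles for livers 1, 2 and 3. Macrophage, monocyte and stellate cell markers, Csf1 and Csf1r were below 0 in all lipophagy livers, hepatocyte markers were above 0 in them, and Kupffer cell and endothelial markers overlapped between groups.

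**Figure D4:**
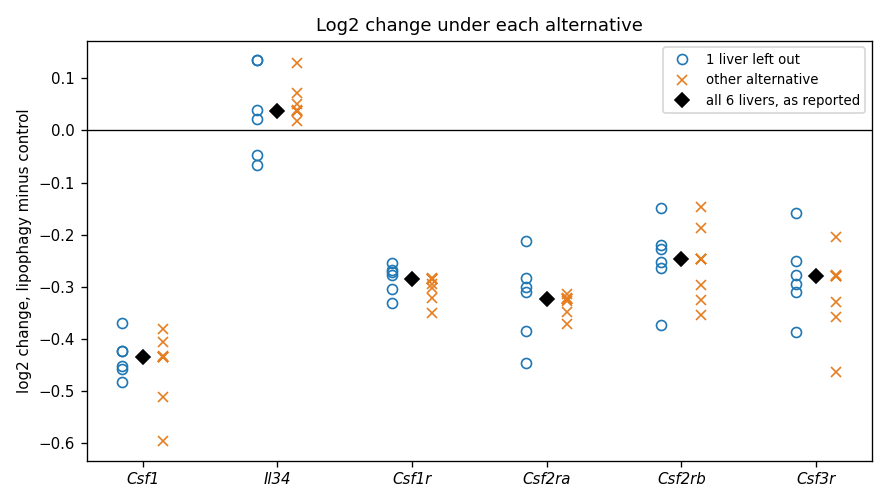
Log2 change of each member (lipophagy minus control, y axis) as reported (black), with 1 liver left out (circles) and under the other alternatives (crosses). Csf1 ran from -0.60 to -0.37 and Csf1r from -0.35 to -0.25, all below 0, and Il34 lay on both sides of 0, from -0.0654 to 0.14.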

How the data were processed

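Liver RNA of 3 control and 3 lipophagy mice had been prepared with a stranded poly(A) kit and sequenced as paired ends, on a HiSeq instrument per the labels and a NovaSeq instrument per the study's methods. The authors deposited FPKM values per gene symbol and liver, which they had already scaled to transcript length and sequencing depth, and no counts were used. The submitters' processing notes name TopHat2 2.0.13, Bowtie2 2.2.3, SAMtools 0.1.19, Cufflinks 2.2.1 and the build mm10. Their parameters and the annotation are not given in the sources used here. Because the table holds 1 value per gene, transcripts of a gene cannot be told apart, and fragments of near-identical genes may have been divided between them. Of 24346 symbols, 7161 were at 0 in all livers and 27 had been turned into dates. FPKM summed to 622696 to 681138 in control and 709993 to 782392 in lipophagy livers, and Spearman correlations between livers were 0.979 to 0.982.

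Values were transformed to log2(FPKM + 1), and the 11493 genes averaging 0.5 FPKM or more were fitted with limma 3.58.1 in R 4.3.3 (moderated variance with an intensity trend, no covariates, two-sided, Benjamini-Hochberg adjustment, threshold 0.05). Ratios within livers were compared by exact permutation. With nothing said of separate cultures or litters beyond 1 liver per sample, p-values measure the spread between these livers. Depth was estimated from the steps of low FPKM values and transcript lengths less 150 bases, and numbers of fragments cover counting error only. Lists were described by counts and medians, without a set test. The genes named were the members, every other ligand and receptor of their families, in each further pathway list the largest rise and fall and the genes with an unadjusted p below 0.05 and no overlap, and the 3 nearest profiles of each member. Markers were to be named where a defining one was at 0 or led its list. Adgre1 and Ccr2 were singled out after their values were seen. Results that this rule calls for but that are withheld are not reported here. The members and lists were chosen with earlier results of these data known. Alternatives were other pseudocounts, filters and normalizations, limma without the trend or with quality weights, a replicate block and each liver left out. The procedure was tested on simulated data. Plots used matplotlib 3.10.9 and tables pandas 2.3.3 in Python 3.11.15.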

Additional observations from a re-analysis of the deposited data

How the results depend on the processing

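Over the alternatives of pseudocount, filter, normalization, trend, weights, block and livers left out, Csf1, Csf1r, Csf2ra, Csf2rb and Csf3r kept a negative difference in all, and no member reached an adjusted p below 0.05 (lowest 0.0669 for Csf1 and 0.0793 for Csf1r, with a quality weight per liver). Adjusted p ran up to 0.335 for Csf1 and 0.354 for Csf1r. Il34 ranged from -0.0654 to 0.14 with livers left out and was not tested at a filter of 1 FPKM, since its mean lies below it. Members with an unadjusted p below 0.05 numbered 4, 3 without a filter, with a filter of 1 FPKM or after quantile normalization (Csf3r was lost in each), and 2 to 3 with livers left out, the lowest without control liver 3 or lipophagy liver 1. With livers left out, Csf1 and Csf1r stayed below 0.05 in 6 of 6 fits, Csf2ra in 2 and Csf3r in 1, and Csf2rb was below it in 1, without lipophagy liver 2. For Csf1 less the stellate cell and fibroblast markers, the sign turned to 0.20 with the median of the markers. The replicate block gave Csf1 an adjusted p of 0.121 and Csf1r 0.193 and changed no member's call. Livers of the same number deviated together only in part (correlations 0.250, 0.234 and -0.057), and 2 of 3 numbers matched best with their own, so the numbers were not taken as pairs. The count of tested genes past the adjusted threshold was 3, against 43 with the block, 39 with quality weights, 1 without a filter, and 2 to 11 with livers left out (11 without lipophagy liver 3, 7 without control liver 2, 5 without lipophagy liver 2). Unadjusted calls were 1327 higher and 916 lower, and 745 and 899 after quantile normalization. The cause of these differences was not tested.

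Lists were not tested, and their medians moved as follows. With a pseudocount of 0.1 they were -0.44 for related receptor kinases, -0.22 for signalling, -0.47 for monocyte, -0.34 for stellate, -0.25 for lymphocyte, -0.73 for bile duct and -0.0772 for transcription factor genes. After quantile normalization they were -0.15 for related receptor kinases, -0.12 for binding and shedding, -0.10 for signalling, -0.34 for macrophage, -0.25 for monocyte, 0.13 for hepatocyte, -0.0322 for lymphocyte and -0.0166 for transcription factor genes. With livers left out they ranged from -0.30 to -0.16 for related receptor kinases, -0.11 to 0.0005 for binding and shedding, -0.17 to -0.13 for signalling, -0.31 to -0.21 for stellate and -0.21 to -0.0538 for lymphocyte genes. The ranges were 0.23 to 1.42 for erythroid, 0.0120 to 0.22 for endothelial, -0.70 to -0.32 for bile duct, -0.67 to -0.31 for neutrophil, -0.0488 to -0.0040 for transcription factor and -0.0466 to 0.0942 for Kupffer cell genes. Depth limits Il34 and the ligands near 0 most, and Csf1 as well if its shortest transcript is taken. With 3 livers a group, an exact test cannot go below 0.1.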
